A study of Mus musculus with 2 samples.

Results

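The nuclear genes of oxidative phosphorylation were taken as every gene whose symbol starts with Nduf, Uqcr, Atp5, Cox4, Cox5, Cox6, Cox7 or Cox8, except Cox6a2. This gave 89 members of the 32285 genes in the count matrices. By role, 45 belong to complex I, 8 to complex III, 19 to complex IV and 17 to complex V, with Ndufa4 and its paralog Ndufa4l2 placed in complex IV. Of the members, 9 are assembly factors and 7 are paralogs known from particular tissues or from low oxygen.

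The members were measured in 2 single-cell libraries of mouse colon lamina propria, one labelled CD163_NC and the other CD163_FL. According to its title the series is about wild-type animals and animals deficient in CD163+ macrophages, but the labels tie neither library to either kind. Genotype, strain and age are not stated, nor is the way the macrophages were depleted, so each library is called by its label. Both are labelled CD45+ and were made from Percoll-enriched, sorted cells with a 3' kit. Each group is a single library, so there is no replicate check, no test was made, and every interval below covers counting error only.

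Oxidative phosphorylation is the last stage of respiration in mitochondria. Complex I takes electrons from NADH, complex III passes them from ubiquinol to cytochrome c, and complex IV gives them to oxygen. The protons pumped on the way drive complex V, the ATP synthase. Most subunits are encoded in the nucleus and imported, while a core set is encoded by mitochondrial DNA, so the complexes need transcripts from both genomes. Activated lymphocytes and macrophages are known to shift the balance between respiration and glycolysis.

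Kept for analysis were 9756 cells of CD163_NC and 13715 of CD163_FL, with median depths of 6040 and 6462 UMIs per cell. Lineages were gated by lists of marker genes, so a lineage name says that a cell carries those markers, and 70.0% and 73.2% of the cells entered one. Ptprc, which encodes CD45, had a UMI in 87.1% and 94.2% of kept cells. Cells with an epithelial signature, which lie outside the CD45+ label, were 165 and 60. Cd163 had 15 and 8 UMIs over all kept cells, too few to check either label. The libraries share 49 cell barcodes, and leaving those out moved no summed member ratio beyond its interval.

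Of the 89 members, 87 had a UMI. Cox8b and Cox8c, paralogs known from striated muscle and testis, had 0 UMIs in both libraries, which allows up to 0.0335 CPM (UMIs scaled to a fixed total) in CD163_NC and 0.0254 CPM in CD163_FL. Cox7b2 had 4 and 2 UMIs, Ndufa4l2, a paralog induced by low oxygen, had 17 and 46, and Cox4i2, the low-oxygen paralog of Cox4i1, had 45 and 101. Cox6b2 had 156 and 151 UMIs and Cox7a1, the heart and muscle paralog of Cox7a2, had 823 and 284. Against these, the ubiquitous Cox4i1 had 44876 and 61705 UMIs and Cox8a had 55903 and 50290. The restricted paralogs were thus rare in both libraries beside the ubiquitous forms. Of the Cox7a1 UMIs, 515 in CD163_NC and 110 in CD163_FL came from epithelial cells, where it stood at 164 and 67.8 CPM. Its totals therefore depend on the number of those cells, 165 and 60. Levels here count 3' ends, 1 UMI per captured molecule, and are not divided by transcript length. On that scale the most abundant member of complex V over all kept cells was Atp5e, the epsilon subunit, at 644 CPM in CD163_NC and 459 CPM in CD163_FL. In complex IV Cox8a was highest in CD163_NC and Cox4i1 in CD163_FL, with Cox4i1 at 501 and 522 CPM, Cox8a at 624 and 425 CPM and Cox7c at 535 and 398 CPM. In complex III it was Uqcrh, the hinge protein, at 419 and 409 CPM. In complex I it was Ndufb1-ps, named as a pseudogene and annotated as a noncoding transcript, at 399 and 287 CPM. Ndufa2 followed at 227 and 193 CPM. Processed copies of several members exist in the genome, and how reads that match several places were counted is not given in the sources used here.

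The summed level of the members differed widely between lineages. Epithelial cells had the highest, 56869 CPM (95% Poisson interval 56605 to 57134) in CD163_NC and 43189 CPM (42870 to 43510) in CD163_FL, so that the members made up 5.69% and 4.32% of their UMIs. Next were the granulocyte progenitors of CD163_NC at 27831 CPM (27476 to 28190) and its germinal center B cells at 18205 CPM (18038 to 18373). Type 2 innate lymphoid cells of CD163_FL had the lowest level, 6517 CPM (6382 to 6653). Just above them, B cells outside germinal centers in CD163_FL at 7709 CPM (7622 to 7797) and type 3 innate lymphoid cells of CD163_FL at 7733 CPM (7512 to 7959) could not be told apart. In the middle of the order, plasma cells (13458 CPM), CD8 T cells (13389 CPM) and natural killer or type 1 innate lymphoid cells (13177 CPM) of CD163_NC had overlapping intervals. Immunoglobulin transcripts took 42.9% and 43.3% of plasma cell UMIs. With those out of the denominator, plasma cells stood at 23586 CPM in CD163_NC and 18226 CPM in CD163_FL.

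**Figure D1:**
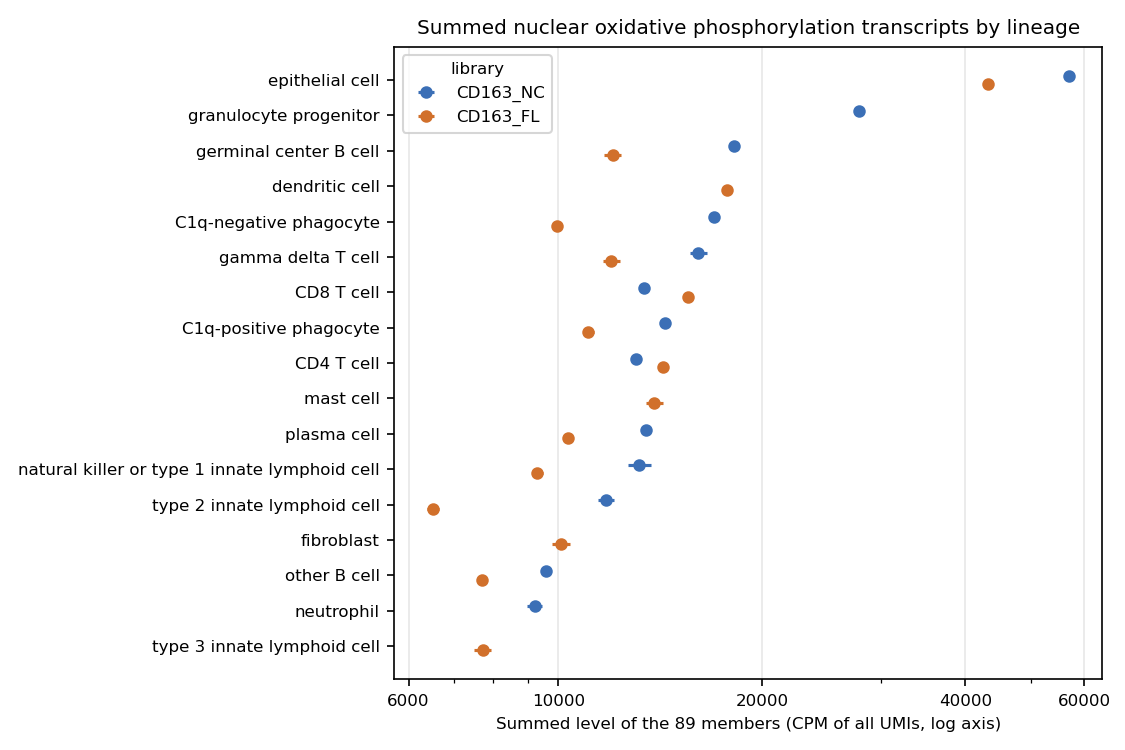
Summed level of the 89 members in each lineage with at least 30 cells, in CPM on a log axis, by library, with 95% Poisson intervals that are mostly narrower than the points. Epithelial cells stand apart at 56869 and 43189 CPM, and CD163_FL lies above CD163_NC in CD4 and CD8 T cells alone among lineages plotted for both libraries.

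The complexes kept similar proportions. Complex I took from 25.6% of member UMIs, in natural killer or type 1 innate lymphoid cells of either library, to 35.6%, in neutrophils of CD163_NC. Complex III took from 8.46% to 12.4%, highest in epithelial cells. In plasma cells complex I took 33.2% and 33.5% of member UMIs, against 27.7% in other B cells of either library.

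C1q-negative phagocytes, myeloid cells with markers of monocytes and macrophages but no transcript of the complement component C1q, showed the widest gap among the 6 lineages with at least 100 cells in each library. Their summed members stood at 16999 CPM in CD163_NC (190 cells) and 9954 CPM in CD163_FL (658 cells), a ratio of 0.586 (95% interval 0.576 to 0.595), or -0.77 on the log2 scale. A member was called when it had at least 20 UMIs over both libraries and differed at least 1.5-fold. Of 79 members with enough UMIs, 52 were lower in CD163_FL (65.8%), 0 were higher and 27 lay within 1.5-fold. Over all 9271 genes measured in these cells, 31.1% were lower and 21.5% higher. The median log2 ratio was -0.84 over members and -0.16 over all genes, and 77 of the 79 members had a ratio below 1. Of all genes 43.0% had a ratio above 1.

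Complex I had the lowest ratio in these phagocytes. Its summed level was 5450 CPM in CD163_NC and 2802 CPM in CD163_FL, a ratio of 0.514 (0.499 to 0.529), and 32 of 42 measured members were lower. Complex III (ratio 0.628, 0.596 to 0.661), complex IV (0.606, 0.588 to 0.624) and complex V (0.630, 0.612 to 0.649) had 5 of 8, 6 of 12 and 9 of 17 members lower. Ndufaf3, an assembly factor of complex I (ENSMUSG00000070283, chromosome 9, 108565537 to 108567434, minus strand, mm10), had 55 UMIs (39.2 CPM) in CD163_NC and 48 UMIs (11.7 CPM) in CD163_FL, a log2 ratio of -1.75 (-2.34 to -1.16). Ndufv3, an accessory subunit of the NADH-binding module (ENSMUSG00000024038, chromosome 17, 31520115 to 31531331, plus strand), stood at 128 and 44.1 CPM, a log2 ratio of -1.54. Ndufa3, a small accessory subunit (ENSMUSG00000035674, chromosome 7, 3617373 to 3620327, plus strand), stood at 302 and 104 CPM, also -1.54. Ndufs7, a core subunit that holds the iron-sulfur cluster next to the ubiquinone site (ENSMUSG00000020153, chromosome 10, 80249121 to 80256794, plus strand), stood at 94.9 and 33.1 CPM, at -1.52. These members were named as those with the lowest ratios whose whole interval lay beyond 1.5-fold. At the other end, Ndufs1, the largest core subunit of complex I, stood at 15.7 and 20.9 CPM, from 22 and 86 UMIs, with a log2 ratio of 0.42 whose interval (-0.27 to 1.16) included 0.

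**Figure D2:**
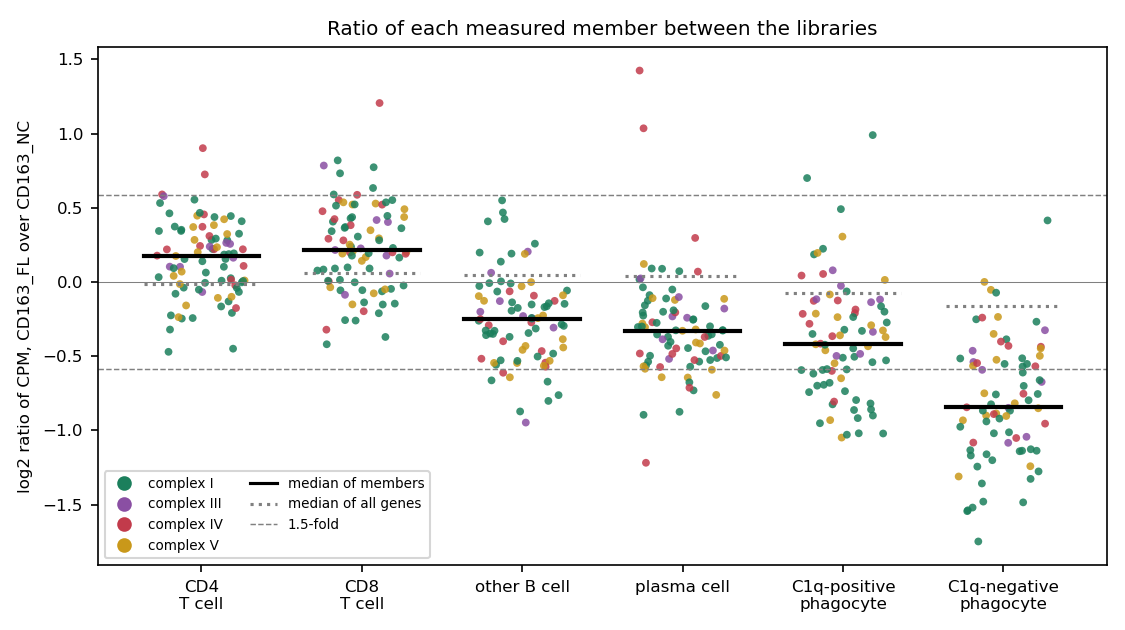
Log2 ratio of each member's level, CD163_FL over CD163_NC, in the 6 lineages with at least 100 cells in each library; points are members with at least 20 UMIs, coloured by complex, solid lines their median and dotted lines the median of all genes. The member median is 0.18 in CD4 T cells, 0.22 in CD8 T cells and -0.84 in C1q-negative phagocytes.

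Transcript length moved with these ratios across all genes. The members are short, with a median annotated length of 732 bases against 1801 for all genes, and 61 of the 89 are under 1000 bases. A gene's length here is the median over its annotated transcripts, which can differ from that of the transcript counted. In C1q-negative phagocytes the median log2 ratio of all genes was -0.72 under 600 bases, -0.75 from 600 to 1000 bases, -0.49 from 1000 to 1500, -0.26 from 1500 to 2500, and 0.17 at 4000 and above. The members stood at -0.89, -0.82, -0.93 and -0.54 in the first 4 of these classes, below all genes in each. From 2500 to 4000 bases all genes stood at -0.015 and the 3 members at a median of 0.0013. Those 3 ran from -1.31 (Atp5g1) to 0.42 (Ndufs1), too few and too far apart for their median to be read. Under 600 bases 21 of 27 members were lower, against 57.0% of all genes, and from 600 to 1000 bases 18 of 27, against 59.5%. With each gene's ratio taken less the median of its length class, the summed log2 ratio was -0.11 instead of -0.77, and 15 members were lower instead of 52. The share of all genes past 1.5-fold after this step was not computed for any lineage. Short transcripts other than the members thus also stood lower in CD163_FL. Why short transcripts differ between the libraries was not tested.

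**Figure D3:**
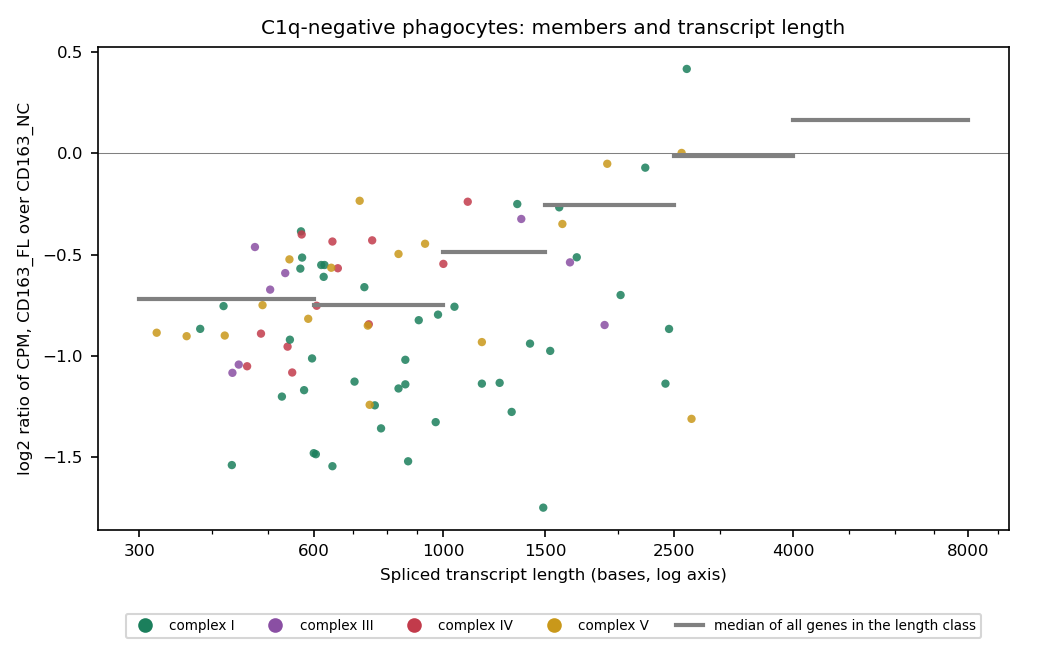
Log2 ratio of each measured member in C1q-negative phagocytes against its spliced length in bases (median over annotated transcripts, log axis), with grey bars for the median of all genes in each length class. All-gene medians run from -0.72 under 600 bases to 0.17 at 4000 bases and above, and the 4 lowest points are complex I members, from -1.75 to -1.52.

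Other values moved with the same gap. C1q-negative phagocytes had median depths of 7679 UMIs (CD163_NC) and 6011.5 UMIs (CD163_FL), and the summed level was higher in deeper cells of either library. Among cells of 6000 to 12000 UMIs the levels were 18182 and 11039 CPM, a log2 ratio of -0.72. The 8 neutrophil marker genes summed to 328 CPM in these cells of CD163_NC and 153 CPM in CD163_FL, with none at 0. Neutrophils had a summed member level of 9225 CPM in CD163_NC, below that of the phagocytes. The 8 epithelial marker genes summed to 56.4 CPM in CD163_NC, with Vil1 at 0, and 19.5 CPM in CD163_FL, at most 0.332% of their level in epithelial cells. The part of these in the result was not tested.

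C1q-positive phagocytes, with transcripts of at least 2 of the genes C1qa, C1qb and C1qc as in mature gut macrophages, numbered 102 and 135 cells. Their summed members stood at 14376 CPM in CD163_NC and 11076 CPM in CD163_FL, a ratio of 0.770, or -0.38 on the log2 scale. Of 77 measured members 26 were lower in CD163_FL (33.8%) and 2 higher, against 27.5% lower and 22.7% higher over 7464 genes. Complex I held 21 of the 26, from 40 measured, with a ratio of 0.698 (0.667 to 0.730), while complex III had none of 8 past 1.5-fold. Atp5j2, subunit f of complex V, stood at 349 and 169 CPM (log2 ratio -1.05), and Ndufa7 at 196 and 96.5 CPM (-1.02). Ndufa13, an accessory subunit also known as GRIM-19, stood at 215 and 114 CPM (-0.92), and Ndufa3 at 251 and 135 CPM (-0.90). Less the length class medians the summed log2 ratio was 0.11, with 2 members lower and 6 higher, so the direction turned. With cells thinned to 1000 UMIs before gating it was -0.13.

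Other B cells, those outside germinal centers, had summed members at 9580 CPM in CD163_NC and 7709 CPM in CD163_FL, a ratio of 0.805. Of 82 measured members 8 were lower (9.76%) and 0 higher, against 15.5% and 11.8% of 10979 genes, so members past 1.5-fold were no more frequent than among all genes. Their ratios were nevertheless mostly on one side, with 70 of 82 below 1 and a median of -0.25 against 0.05 for all genes. Of all genes 53.8% had a ratio above 1. Uqcr11, the smallest subunit of complex III (ENSMUSG00000020163), stood at 78.4 and 40.7 CPM (log2 ratio -0.95, -1.21 to -0.70), and Ndufa3 at 129 and 70.5 CPM (-0.87). Less the length class medians the sum was at -0.024, with 2 members lower and 3 higher.

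Plasma cells had summed members at 13458 and 10327 CPM, a ratio of 0.767, with 10 of 85 members lower (11.8%) and 2 higher, against 13.9% and 15.9% of 13345 genes. Here too the ratios lay mostly below 1, in 75 of 85, with a median of -0.33 against 0.04. Of all genes 53.1% had a ratio above 1. Ndufaf3 stood at 18.3 and 9.84 CPM (log2 ratio -0.89), Ndufa3 at 181 and 98.6 CPM (-0.87), Atp5k, subunit e of complex V, at 259 and 153 CPM (-0.76), and Ndufa5 at 94.8 and 57.1 CPM (-0.73). The members higher in CD163_FL were Cox4i2, with 10 and 29 UMIs, and Ndufa4l2, with 14 and 31. Less the length class medians the sum was at -0.032, with 3 lower and 2 higher.

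In CD8 and CD4 T cells the members stood slightly higher in CD163_FL. CD8 T cells had 13389 CPM in CD163_NC (692 cells) and 15561 CPM in CD163_FL (2586 cells), a ratio of 1.16 or 0.22 on the log2 scale. Of 85 members 8 were higher (9.41%) and 0 lower, against 16.8% and 19.7% of 12440 genes. Uqcrfs1, the Rieske iron-sulfur subunit of complex III (ENSMUSG00000038462, chromosome 13, 30540308 to 30545362, minus strand), stood at 62.1 CPM from 276 UMIs and at 107 CPM from 2525 UMIs, a log2 ratio of 0.79 (0.61 to 0.97). It was the member whose whole interval lay beyond 1.5-fold in CD8 or CD4 T cells. Ndufb6 stood at 44.5 and 76.1 CPM, Ndufa9 at 35.3 and 58.7 CPM, and Cox5a, an early-assembling subunit of complex IV, at 245 and 368 CPM. Here the members and other short transcripts lay on opposite sides, since under 600 bases all genes had a median of -0.21 and the members 0.17. Less the length class medians the sum was at 0.32, with 17 members higher and 0 lower, and the share of all genes after this step was not computed. Cells with at least 3 cycling markers were 24 in CD163_NC and 511 in CD163_FL. Among cells with none the summed log2 ratio was 0.13, with 3 members higher and 0 lower. The share of all genes past 1.5-fold among those cells was not computed.

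CD4 T cells had 13007 and 14279 CPM, a ratio of 1.10 (1.09 to 1.11), with 3 of 85 members higher (3.53%) and 0 lower, against 11.0% and 18.7% of 12364 genes. Cox5a stood at 227 and 342 CPM (log2 ratio 0.59). Cox7a1, with 7 and 26 UMIs, and Cox4i2, with 7 and 23, had intervals that included 1. The summed ratio depended on which cells were taken. Cells with at least 3 cycling markers were 47 in CD163_NC and 252 in CD163_FL, and among cells with none the levels were 12451 and 12631 CPM. The log2 ratio was then 0.021, with 2 members lower and 0 higher. Among cells of 6000 to 12000 UMIs it was 0.041, with 2 members lower and 2 higher. The share of all genes past 1.5-fold was computed in neither set of cells. The parts of cycling and of depth were not tested.

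Among the 6 lineages compared, the sum was thus higher in CD163_FL in CD4 and CD8 T cells and lower in the other 4. Gamma delta T cells, with under 100 cells in each library, stood lower in CD163_FL, at 16112 and 11977 CPM. Of 77 members measured in all 6 lineages, 38 had a ratio above 1 in both CD4 and CD8 T cells and below 1 in the other 4. A further 15 were below 1 in all 6 lineages, among them Ndufaf3, Ndufa3, Ndufa7, Ndufs7, Atp5g1 and Cox8a. The share of all genes with either pattern was not computed, so neither can be called particular to the members. Ndufs1 was the one member above 1 in all 6, though its interval excluded 1 in CD4 and CD8 T cells alone. Ndufa3 stood at 180 and 154 CPM in CD4 T cells and 204 and 158 CPM in CD8 T cells. Cox8a stood at 566 and 502 CPM in CD4 T cells and at 804 and 380 CPM in C1q-negative phagocytes. Other lineages with under 100 cells in a library are given side by side only. Germinal center B cells stood at 18205 and 12029 CPM and type 2 innate lymphoid cells at 11748 and 6517 CPM, in CD163_NC and CD163_FL.

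Subunit c of complex V forms the rotating ring in the membrane and is encoded by 3 genes, Atp5g1, Atp5g2 and Atp5g3, which give the same mature protein behind different import sequences. Their promoters are printed because the genes share a product but differed in ratio between the libraries. Whether promoter letters relate to that difference was not tested. Each window runs from 250 bases before to 50 after the annotated start, from RefSeq in GRCm38.p6, 5′ to 3′ on the gene's strand. Atp5g1 is at chr11:96075582-96075881, Atp5g2 at chr15:102670998-102671297 and Atp5g3 at chr2:73911277-73911576, all on the minus strand. Ndufs7 (chr10:80249199-80249498, plus strand) and Cox8a (chr19:7217567-7217866, minus strand), members below 1 in all 6 lineages, are added as examples of the other motifs. Capitals mark matches, on either strand, to GCGCANGCG (nuclear respiratory factor 1), CCGGAAG (ETS family) or AAGATGGCG (Yin Yang 1).
Atp5g1: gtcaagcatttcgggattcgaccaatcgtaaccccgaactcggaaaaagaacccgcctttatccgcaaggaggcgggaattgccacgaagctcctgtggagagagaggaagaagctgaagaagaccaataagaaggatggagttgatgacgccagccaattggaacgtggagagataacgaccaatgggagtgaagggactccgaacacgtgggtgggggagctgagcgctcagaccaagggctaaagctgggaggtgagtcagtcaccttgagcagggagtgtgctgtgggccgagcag
Atp5g2: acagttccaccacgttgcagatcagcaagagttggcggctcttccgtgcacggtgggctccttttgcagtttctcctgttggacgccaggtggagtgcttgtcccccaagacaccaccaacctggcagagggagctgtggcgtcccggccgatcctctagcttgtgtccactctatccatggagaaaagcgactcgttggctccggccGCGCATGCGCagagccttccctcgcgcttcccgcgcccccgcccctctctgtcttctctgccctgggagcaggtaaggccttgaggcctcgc
Atp5g3: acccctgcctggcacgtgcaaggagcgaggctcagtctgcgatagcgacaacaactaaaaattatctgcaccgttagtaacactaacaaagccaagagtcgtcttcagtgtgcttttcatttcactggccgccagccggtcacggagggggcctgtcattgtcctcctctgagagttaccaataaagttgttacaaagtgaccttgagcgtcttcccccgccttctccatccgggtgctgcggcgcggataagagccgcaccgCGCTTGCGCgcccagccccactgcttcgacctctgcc
Ndufs7: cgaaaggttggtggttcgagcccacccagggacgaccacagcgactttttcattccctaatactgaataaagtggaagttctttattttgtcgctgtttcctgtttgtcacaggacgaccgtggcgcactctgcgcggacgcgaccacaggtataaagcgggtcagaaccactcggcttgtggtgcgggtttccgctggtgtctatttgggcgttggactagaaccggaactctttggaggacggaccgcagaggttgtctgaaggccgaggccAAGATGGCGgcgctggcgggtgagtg
Cox8a: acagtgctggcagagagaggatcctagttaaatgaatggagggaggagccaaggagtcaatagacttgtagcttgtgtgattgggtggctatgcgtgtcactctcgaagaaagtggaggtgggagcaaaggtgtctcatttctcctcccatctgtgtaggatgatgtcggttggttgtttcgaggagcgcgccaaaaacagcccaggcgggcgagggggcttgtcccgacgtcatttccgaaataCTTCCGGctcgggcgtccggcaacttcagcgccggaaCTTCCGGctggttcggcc
Atp5g1 holds none of these letters, Atp5g2 and Atp5g3 each hold a match to the respiratory factor motif, Ndufs7 a match to the Yin Yang 1 motif and Cox8a matches to the ETS motif.

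In C1q-negative phagocytes Atp5g1 stood at 184 CPM in CD163_NC and 74.3 CPM in CD163_FL, a log2 ratio of -1.31. Atp5g2 stood at 280 and 159 CPM (-0.82) and Atp5g3 at 157 and 133 CPM (-0.23). The same order held in C1q-positive phagocytes, at -0.93, -0.55 and 0.31. In CD8 T cells Atp5g1 stood at 120 and 116 CPM (-0.049), Atp5g2 at 325 and 317 CPM (-0.035) and Atp5g3 at 188 and 270 CPM (0.52). In CD4 T cells the log2 ratios were -0.11, -0.099 and 0.37. Other B cells gave -0.54, -0.43 and -0.028, and plasma cells -0.64, -0.41 and -0.12. Atp5g3 thus had the highest ratio of the 3 genes in each of the 6 lineages. As medians over annotated transcripts, their lengths are 2675.5 bases for Atp5g1, 586 for Atp5g2 and 718.5 for Atp5g3. Which transcript of each gene was counted was not determined, so these need not be the lengths of the molecules captured.

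Across members, 72 of 89 had a promoter window in the RefSeq table. The respiratory factor motif was in 27.8% of them and in 7.03% of all 27025 genes with a window. The ETS motif was in 23.6% against 9.93%, and the Yin Yang 1 motif in 11.1% against 1.64%. CCGGAAG and AAGATGGCG can overlap by the letters AAG. The Sp family motif GGGCGG was in 44.4% against 38.2% and the TATA box letters TATAAA in 11.1% against 15.7%. Member windows held a median of 19 CpG pairs against 7, and GC-rich windows can hold more matches to GC-rich motifs. A match is a stretch of letters, not a site. In C1q-negative phagocytes the 19 measured members with the respiratory factor motif had a median log2 ratio of -0.87 and the 47 without it -0.89. The corresponding medians were -0.34 and -0.52 in C1q-positive phagocytes, -0.33 and -0.40 in plasma cells, -0.23 and -0.30 in other B cells, 0.19 and 0.11 in CD4 T cells and 0.22 and 0.20 in CD8 T cells. The median with the motif was thus the higher in each of the 6 lineages, and the difference was not tested.

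Transcripts encoded by mitochondrial DNA went the other way from the nuclear members in 4 lineages. In C1q-negative phagocytes they stood at 11684 CPM in CD163_NC and 21991 CPM in CD163_FL, a ratio of 1.88 (1.85 to 1.91). In C1q-positive phagocytes they stood at 11074 and 19951 CPM, with a log2 ratio of 0.85. The ratio was 1.34 in plasma cells and 1.11 in other B cells. In CD8 and CD4 T cells, where nuclear members were also higher, it was 1.66 and 1.39. UMIs of mitochondrially encoded genes per member UMI were 0.687 and 2.21 in C1q-negative phagocytes, 1.33 and 1.69 in CD4 T cells and 2.88 and 3.97 in other B cells. The subunit mt-Co1 of complex IV stood at 3641 and 5743 CPM in C1q-negative phagocytes, and mt-Nd3 of complex I at 85.6 and 224 CPM. The exceptions included mt-Atp8, below 1 in 5 of 6 lineages (222 and 150 CPM in CD4 T cells), and mt-Nd4l, below 1 in 4. Each overlaps its neighbour in the mitochondrial genome, so reads in the overlap cannot be told apart. The part of that overlap in these ratios was not tested. Also below 1 were mt-Nd6 in C1q-positive phagocytes and CD4 T cells, and mt-Nd5 in other B cells. Cells above 10% mitochondrial UMIs had been removed, and mitochondrial transcripts are also a common measure of cell damage. Whether that plays a part was not tested. Leaving mitochondrial UMIs out of the denominator gave nuclear log2 ratios of -0.76 in C1q-negative phagocytes and 0.23 in CD8 T cells.

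**Figure D4:**
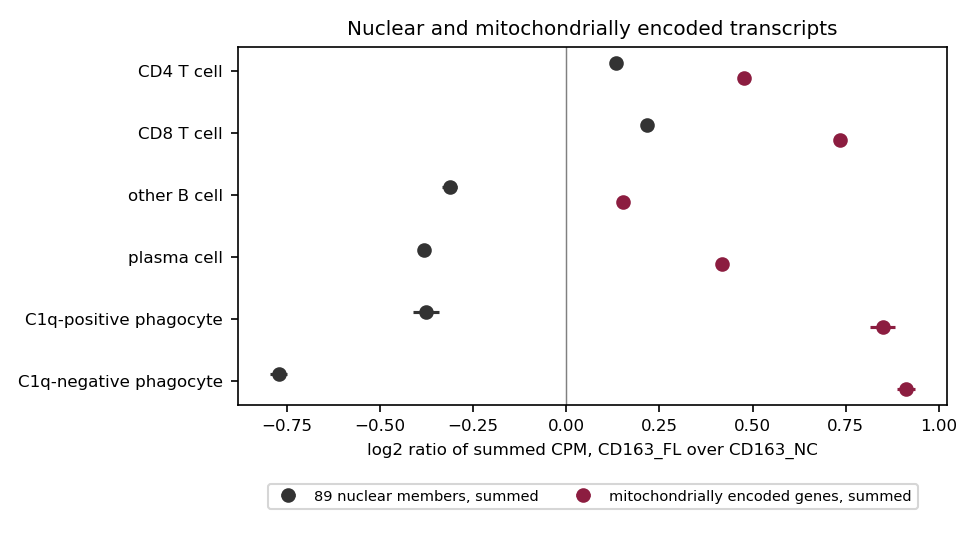
Log2 ratio of summed level, CD163_FL over CD163_NC, for the 89 nuclear members and for mitochondrially encoded genes in the 6 lineages, with 95% intervals for counting error. Mitochondrially encoded transcripts lie above 0 in all 6, while the nuclear sum is above 0 in CD4 and CD8 T cells and below 0 in the other 4.

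Other genes of mitochondrial respiration gave the following counts. Complex II and its assembly, which joins the respiratory chain to the tricarboxylic acid cycle, had 5 of 7 measured genes lower in C1q-negative phagocytes (median log2 ratio -0.64) and 0 higher. Sdhb, its iron-sulfur subunit, stood at 89.2 and 47.7 CPM there. Assembly genes of complexes III and IV had 10 of 17 lower and 2 higher in those cells (median -0.72). Of the electron carrier cytochrome c and its partner cytochrome c1, Cycs stood at 325 and 194 CPM and Cyc1 at 62.1 and 31.7 CPM, both lower. Carriers, channels and the ATP synthase inhibitor had 3 of 7 lower (-0.47), with the inhibitor Atpif1 at 153 and 83.5 CPM. Tricarboxylic acid cycle genes had 5 of 12 lower and 0 higher (-0.32), and citrate synthase, Cs, stood at 88.5 and 86.9 CPM. Against the 31.1% of all genes lower in these cells, these short lists can only be described. In CD8 T cells 5 of 12 cycle genes were higher and 0 lower (median 0.33), with Cs at 65.9 and 106 CPM, and 4 of 20 assembly genes were higher and 1 lower, beside 16.8% of all genes higher. In CD4 T cells 3 of 12 cycle genes were higher and 0 lower, beside 11.0% of all genes higher. In plasma cells 6 of 20 assembly genes were lower and 0 of 12 cycle genes past 1.5-fold, beside 13.9% of all genes lower. In other B cells 4 of 20 assembly genes were lower and 1 higher, beside 15.5% of all genes lower. In C1q-positive phagocytes complex II had 3 of 7 lower, beside 27.5% of all genes. Regulators of mitochondrial biogenesis did not share one direction. Nrf1, which encodes nuclear respiratory factor 1, stood at 152 and 261 CPM in other B cells and at 32.1 and 52.8 CPM in C1q-negative phagocytes. Ppargc1a, a coactivator best known from muscle and brown fat, had 1 UMI in C1q-negative phagocytes of either library.

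Cycling cells had more member transcripts than non-cycling cells of the same lineage and library. Cells with at least 3 of the cycling markers were compared with cells that had none. In CD4 T cells the levels were 16642 against 12451 CPM in CD163_NC (ratio 1.34, 1.31 to 1.37) and 18192 against 12631 CPM in CD163_FL (1.44). In CD8 T cells of CD163_FL they were 17928 against 13725 CPM (1.31), and in germinal center B cells of CD163_NC 20392 against 10625 CPM (1.92). In CD8 T cells complex I had a ratio of 1.35 and complex III 1.13, while the summed assembly factors stood lower in cycling cells (0.775, 0.735 to 0.817). Of the 9 assembly factors, 1 was lower there and 2 were higher past 1.5-fold. The share of all genes past 1.5-fold between cycling and non-cycling cells was not computed. Cox7a2l alone gave 5781 of the 8494 assembly factor UMIs in CD8 T cells of CD163_FL. Plasma cells gave 1.85 in CD163_NC and 2.04 in CD163_FL, but immunoglobulins took 26.2% and 27.8% of UMIs in the cycling cells against 49.9% and 49.8% in the others. Without immunoglobulins in the denominator those ratios were 1.26 and 1.42. For the summed assembly factors the ratios were 0.897 and 0.983 in CD4 T cells of CD163_NC and CD163_FL, and 1.25 in germinal center B cells of CD163_NC. In plasma cells the assembly factors gave 1.26 and 1.30 without immunoglobulins in the denominator. Cycling cells were also deeper, with medians of 13501 and 6807.5 UMIs in CD8 T cells of CD163_FL. The part of depth in these differences was not tested.

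Within a lineage cells varied widely, and the libraries overlapped in most lineages. In C1q-negative phagocytes the members took a median of 1.66% of a cell's UMIs in CD163_NC (quartiles 1.27% and 2.02%) and 0.932% in CD163_FL (0.453% and 1.20%). The upper quartile of CD163_FL thus lay under the lower quartile of CD163_NC, the one such case among the 6 lineages compared. In CD4 T cells the medians were 1.22% and 1.28%, and the interquartile ranges overlapped, with lower quartiles of 0.962% and 0.928%. Other B cells had medians of 0.846% and 0.702%, and plasma cells 1.09% and 0.802%. Among the C1q-negative phagocytes of CD163_FL, 136 of 658 cells were under 3000 UMIs and stood at 4635 CPM, and 293 were between 6000 and 12000 UMIs and stood at 11039 CPM.

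**Figure D5:**
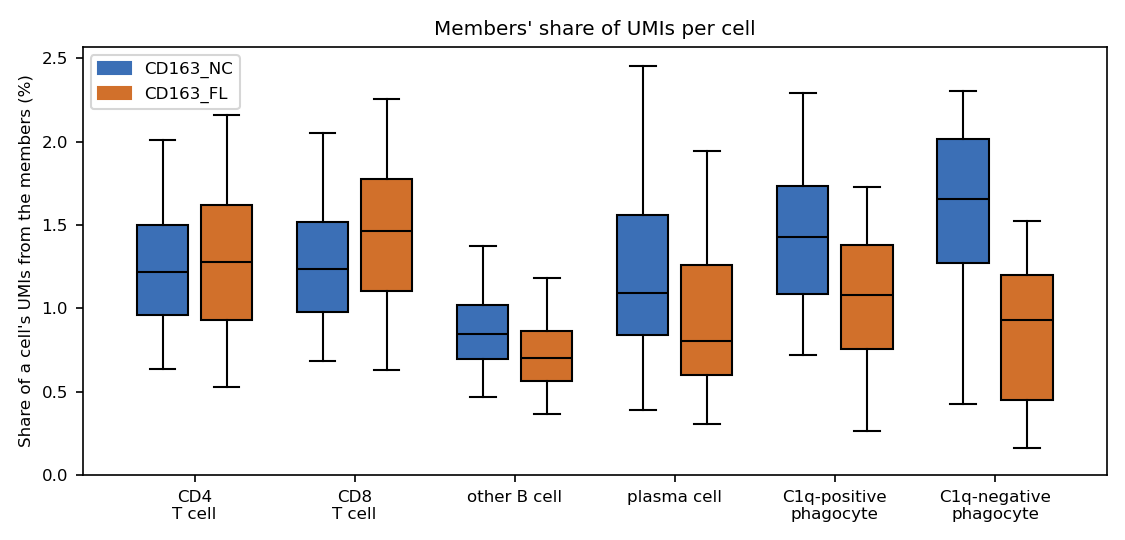
Share of each cell's UMIs that came from the members, in percent, by lineage and library; boxes are quartiles with the median, whiskers the 5th and 95th percentiles over cells, which are not replicates. Of the 6 lineages drawn, the boxes overlap in all but C1q-negative phagocytes, with medians of 1.66% and 0.932%.

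Across the 6 lineages, with the libraries averaged on the log2 scale, 73 members had at least 20 UMIs everywhere, and their levels spanned a median of 1.05 log2 units. These levels are CPM of all UMIs. Immunoglobulin transcripts took 42.9% and 43.3% of plasma cell UMIs in CD163_NC and CD163_FL, against 1.39% and 1.15% in other B cells. Plasma cell levels are thus lowered beside other lineages, so wide and narrow ranges alike depend on this denominator. Ranges without immunoglobulins were not computed. The widest range belonged to Ndufa1, a small membrane-arm subunit of complex I, at 2.33 log2 units or 5.02-fold, highest in plasma cells and lowest in other B cells. Uqcr11 (1.98), Ndufs5 (1.90) and Ndufa4 (1.69) were likewise highest in plasma cells and lowest in other B cells, and Ndufa13 (1.70) was highest in CD8 T cells. Cox7a2l, which promotes the joining of complexes III and IV into supercomplexes, ran in another order, highest in CD8 T cells and lowest in plasma cells, 4.03-fold apart. Among the narrowest ranges were those of Uqcrfs1 (0.39 log2 units or 1.31-fold), Ndufv2 (0.46), Uqcrc1 (0.49), Ndufb4 (0.53) and Atp5b, the catalytic beta subunit of complex V (0.57). Of the members named here for a narrow range, Ndufb4 is accessory and the others are core subunits, while none of the 6 widest is core. Core subunits number 15 among all members, and whether this contrast goes beyond their share was not tested.

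Most members moved together across lineages and libraries. Over 28 lineage and library points with at least 30 cells, the level of 78 members was correlated with the sum of the other members, with a median Pearson r of 0.899, and 74 were above 0.5. The points share libraries, depth and a common denominator, so this describes the data and is no test. They include epithelial cells at 56869 and 43189 CPM, far above the next highest point at 27831 CPM. Correlations without epithelial cells were not computed. The lowest were Ndufaf7, an assembly factor that methylates a core subunit of complex I, at 0.188, Cox7a2l at 0.210, Ndufaf4 at 0.404 and Ndufs1 at 0.482. Outside the members, the genes most like their sum among 5878 with at least 20 CPM were Cyc1 (r 0.944), the succinyl-CoA ligase gene Suclg1 (0.918), the adenine nucleotide carrier Slc25a5 (0.915), the outer membrane channel Vdac1 (0.909) and the import chaperone Timm13 (0.907).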

How the data were processed

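Mouse colon lamina propria cells were profiled in 2 libraries. The deposited values are raw UMI counts per gene and cell barcode, with no normalization by the authors; per the file headers the matrices were written by Cell Ranger 7.1.0. The submitters' processing notes name mm10 and Seurat 4. No source used here gives the aligner settings, and the counts were used without removing free RNA. The 10390 and 15270 barcodes held 94729872 and 131306539 UMIs.

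Cells needed at least 500 UMIs, 200 genes and at most 10% mitochondrial UMIs (8 and 22 barcodes fell under the minimum, 370 and 869 over the limit). Scrublet, run in scanpy 1.11.5 per library, called 257 (2.47%) and 672 (4.40%) doublets, which were removed; 8.31% and 12.2% were expected, so some will remain. A cell entered one of 15 marker lists when at least 3 markers had a UMI and no other list had over 0.5 times its share detected. T cells were divided by Cd4, Cd8a, Cd8b1 and Trdc, phagocytes by C1q genes and B cells by germinal center markers.

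UMIs were summed per lineage and library and given as CPM with exact Poisson 95% intervals. Ratios have exact conditional binomial intervals and were compared in lineages with at least 100 cells per library. The ratio step was tested on simulated Poisson counts. These hold no variation between cells or animals, so that test checks the calculation alone. The members, marker lists, pathway lists and naming rule were chosen with earlier results of these data known. Named were up to 4 members each way per lineage with at least 50 UMIs and an interval wholly beyond 1.5-fold, the 6 widest and 6 narrowest ranges, the top 3 of each complex, restricted paralogs, the subunit c genes and the genes most like the sum. One member that the rule names is not reported here. Members given as examples outside that rule were chosen after their values were seen. Positions and lengths are from GENCODE mouse release 21 (GRCm38, the mm10 assembly). Alternatives covered the denominator, scaling, filters, doublets, gates, thinning, cycling, depth, shared barcodes and length.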

Additional observations from a re-analysis of the deposited data

Results flagged for a closer look

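The summed nuclear members went in opposite directions between the libraries in different lineages. The log2 ratio of CD163_FL over CD163_NC was 0.13 in CD4 T cells and 0.22 in CD8 T cells, and -0.77 in C1q-negative phagocytes. With 1 library per group the difference between lineages was not tested. Less the median of each gene's length class the values were 0.29, 0.32 and -0.11, and in non-cycling cells 0.021, 0.13 and -0.80.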

How the results depend on the processing

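With 1 library per group, depth limits counting error only, and the spread between animals is unknown. No paired analysis was possible because each group is 1 library. Of 84 recomputed summed ratios 83 kept their direction, and 42 of these stayed within the counting interval. The values that left it follow as log2 ratios. With median ratio scaling they were 0.15 in CD4 T cells, 0.16 in CD8 T cells, -0.36 in other B cells, -0.42 in plasma cells, -0.31 in C1q-positive and -0.61 in C1q-negative phagocytes. As the mean share per cell they were, in the same order, 0.054, 0.17, -0.27, -0.37, -0.45 and -0.87. Less the length class median, an alternative chosen after seeing the data, they were 0.29, 0.32, -0.024, -0.032, 0.11 (reversed) and -0.11. In cells thinned to 1000 UMIs before gating they were 0.16 in CD4 T, 0.14 in CD8 T, -0.34 in plasma cells, -0.13 in C1q-positive and -0.73 in C1q-negative phagocytes. In non-cycling cells they were 0.021 in CD4 T, 0.13 in CD8 T, -0.28 in other B, -0.44 in plasma cells and -0.80 in C1q-negative phagocytes. In cells of 6000 to 12000 UMIs, also chosen after seeing the data, they were 0.041 in CD4 T, -0.23 in other B, -0.22 in plasma cells, -0.41 in C1q-positive and -0.72 in C1q-negative phagocytes. A gate of 4 markers gave 0.15 in CD4 T and -0.29 in other B cells. A mitochondrial limit of 5% gave 0.24 in CD8 T cells, -0.37 in plasma cells and -0.73 in C1q-negative phagocytes. CPM without mitochondrially encoded UMIs gave 0.23 in CD8 T and -0.37 in plasma cells, CPM without immunoglobulins -0.37 in plasma cells, and subunits only 0.23 in CD8 T cells. Leaving out shared barcodes was also chosen after seeing the data and kept each value within its interval. The cause was not tested.

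Of 96 counts of members past 1.5-fold, 17 moved by over 1.5 times. The counts were 3 in CD4 T, 8 in CD8 T, 8 in other B and 12 in plasma cells, 28 in C1q-positive and 52 in C1q-negative phagocytes. Less the length class median they were 7, 17, 5, 5, 8 and 15. No share over all genes was computed for that or any other alternative setting. Thinning gave 17 (14 higher) in CD4 T, 15 (9 higher) in CD8 T, 25 (23 lower) in other B cells and 9 of 27 measured in C1q-positive phagocytes; these have few UMIs per gene. Median ratio scaling gave 5 in CD8 T and 14 in other B cells, non-cycling cells 3 in CD8 T cells, and subunits only 1 in CD4 T and 7 in plasma cells. In CD4 T cells a mitochondrial limit of 5% gave 5 and a minimum of 100 UMIs gave 1.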
